A study of Mus musculus with 6 samples.

Results

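The GIMAP genes (GTPases of immunity-associated proteins) were followed in CD43- splenic B-cells of 3 genotypes, resting or LPS-stimulated. Members were all GTPase genes of the Gimap cluster named in the deposited count table, which gave Gimap1, Gimap3, Gimap4, Gimap5, Gimap6, Gimap7, Gimap8 and Gimap9, 8 of 46963 gene names. The study compared wt mice with Eμ-deficient mice, which lack the intronic enhancer of the immunoglobulin heavy chain locus, and with 3′RR-deficient mice, which lack the 3′ regulatory region at the other end of that locus. The Eμ-deficient line is called EμMAR-deficient in the study's methods, and both deletions are carried by every cell of the animal. Per the methods all 3 lines shared one inbred background, and the mice were young adults of both sexes. Splenocytes were depleted of CD43+ cells, which takes out T cells and activated B-cells, and were kept in medium alone (resting) or with LPS, a bacterial lipopolysaccharide that drives B-cells to divide and to secrete antibody, at 5 μg per ml for 2 days. The labels give the resting cells as cultured for 2 days too, whereas the methods describe them as taken before stimulation. Each genotype and culture state had 1 library, made from a pool of 2 mice, so 6 libraries in all. The methods describe cells of the same mice taken before and after stimulation, and more mice and pools for each genotype than the single library per state analysed here.

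GIMAP proteins are small guanine nucleotide-binding proteins of lymphocytes that sit on intracellular membranes such as those of the endoplasmic reticulum, lysosomes and lipid droplets. They are known for their part in the survival of lymphocytes. Loss of Gimap5 in mice and rats leads to a shortage of T cells, loss of Gimap1 depletes mature B and T cells, and several members have been reported to bind BCL2-family or autophagy proteins.

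The 8 genes lie together on mouse chromosome 6, within 123.6 kb between positions 48647234 and 48770851 of GRCm38 (mm10). In order along the chromosome they are Gimap8, Gimap9, Gimap4, Gimap6, Gimap7, Gimap1, Gimap5 and Gimap3. Gimap6 and Gimap3 are read from the minus strand and the other 6 from the plus strand. All 8 are annotated as protein-coding. Gimap8 has the longest coding sequence, 2064 bases, against 873 bases for Gimap9 and 984 bases for Gimap4 at the ends of the range of the other 7. Gimap3 and Gimap5 are the closest pair, with 89.9% identity over 898 aligned coding bases, whereas the other pairs ranged from 54.8% to 64.9%. Gimap3 and Gimap5 shared 41 stretches of 100 bases in their exons and no other pair shared any. Reads mapping to several places were counted, so some reads of Gimap3 and Gimap5 may not be assignable to one of them with certainty. The study's full-length reads were longer than these stretches, and the shared ones made up only 1.7% of those in Gimap3 and 1.0% of those in Gimap5.

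The 250 bases before the start of 3 members are shown because these members carry the LPS results: Gimap6 fell with LPS, Gimap5 rose, and Gimap3 is the near copy of Gimap5. Sequences are those of RefSeq on GRCm38.p6, written 5′ to 3′ on the strand of the gene, at chr6:48708245-48708494 (minus strand) for Gimap6, chr6:48745947-48746196 (plus strand) for Gimap5 and chr6:48770852-48771101 (minus strand) for Gimap3. Capitals mark matches, on either strand, to the short motifs CACCC of KLF factors and GTAAACA of FOXO factors, 2 families with members that keep lymphocytes quiescent.
Gimap6: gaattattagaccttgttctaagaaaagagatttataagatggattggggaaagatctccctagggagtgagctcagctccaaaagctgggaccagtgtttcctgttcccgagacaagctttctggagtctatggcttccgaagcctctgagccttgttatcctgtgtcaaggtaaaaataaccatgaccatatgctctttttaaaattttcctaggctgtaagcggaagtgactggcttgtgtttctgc
Gimap5: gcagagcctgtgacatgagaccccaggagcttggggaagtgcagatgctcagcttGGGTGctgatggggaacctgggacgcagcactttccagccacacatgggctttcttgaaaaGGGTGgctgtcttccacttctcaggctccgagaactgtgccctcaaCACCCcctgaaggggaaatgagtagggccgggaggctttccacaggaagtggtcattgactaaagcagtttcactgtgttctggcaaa
Gimap3: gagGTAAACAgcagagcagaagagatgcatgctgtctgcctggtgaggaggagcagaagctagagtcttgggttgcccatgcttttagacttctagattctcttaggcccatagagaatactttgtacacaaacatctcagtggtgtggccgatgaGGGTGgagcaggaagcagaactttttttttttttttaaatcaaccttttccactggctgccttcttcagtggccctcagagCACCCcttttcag
In all 5 motifs were searched on both strands, and all 8 members had a window in the RefSeq promoter table. The letters CACCC were found in the windows of 5 members (Gimap3, Gimap4, Gimap5, Gimap8 and Gimap9), and in 52.0% of the 32851 windows of all genes. TGTGGT, the core of RUNX sites, was found in 3 members (Gimap1, Gimap4 and Gimap7) and in 14.0% of all windows. GTAAACA was found in Gimap3 only and in 3.17% of all windows. The ETS letters CCGGAAG and the NF-kB motif (GGG, any 3 bases, then TTCC) were found in 0 of the 8 members, against 6.91% and 4.65% of all windows. The Gimap6 window held none of the 5 motifs and the Gimap5 window held CACCC at 3 places.

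Each library held between 9111974 and 21998587 gene counts, and added spike-in RNAs took 4.75% to 7.10% of its counts. Between 27.8% and 36.6% of the gene counts of a library fell on 3 structural RNAs (Rn18s-rs5, mt-Rnr2 and Rn7sk). Ratios of single spike-ins to the wt library spread most in the LPS library of 3′RR-deficient mice, with an SD of 1.27 on the log2 scale over 35 spike-ins, against 0.16 to 0.48 in the 3 other mutant libraries. Between the LPS and the resting library of a genotype this SD was 0.78 in wt, 0.63 in 3′RR-deficient and 0.13 in Eμ-deficient mice, so the LPS libraries of both wt and 3′RR-deficient mice stood apart. With 1 library per genotype and culture state, a difference between 2 libraries has no replicate check, and its interval covers counting error only.

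All 8 GIMAP genes were expressed in all 6 libraries, with between 142 and 6504 counts each, and all 8 were among the 14600 genes tested. Levels are given as CPM, counts per 1000000 counts of a library whose size was set by TMM scaling, that is by the bulk of its genes. Together the 8 genes held 532 to 763 CPM in resting and 554 to 670 CPM in LPS libraries, and these ranges overlapped. The expression of the family as a whole thus did not separate the culture states.

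**Figure D1:**
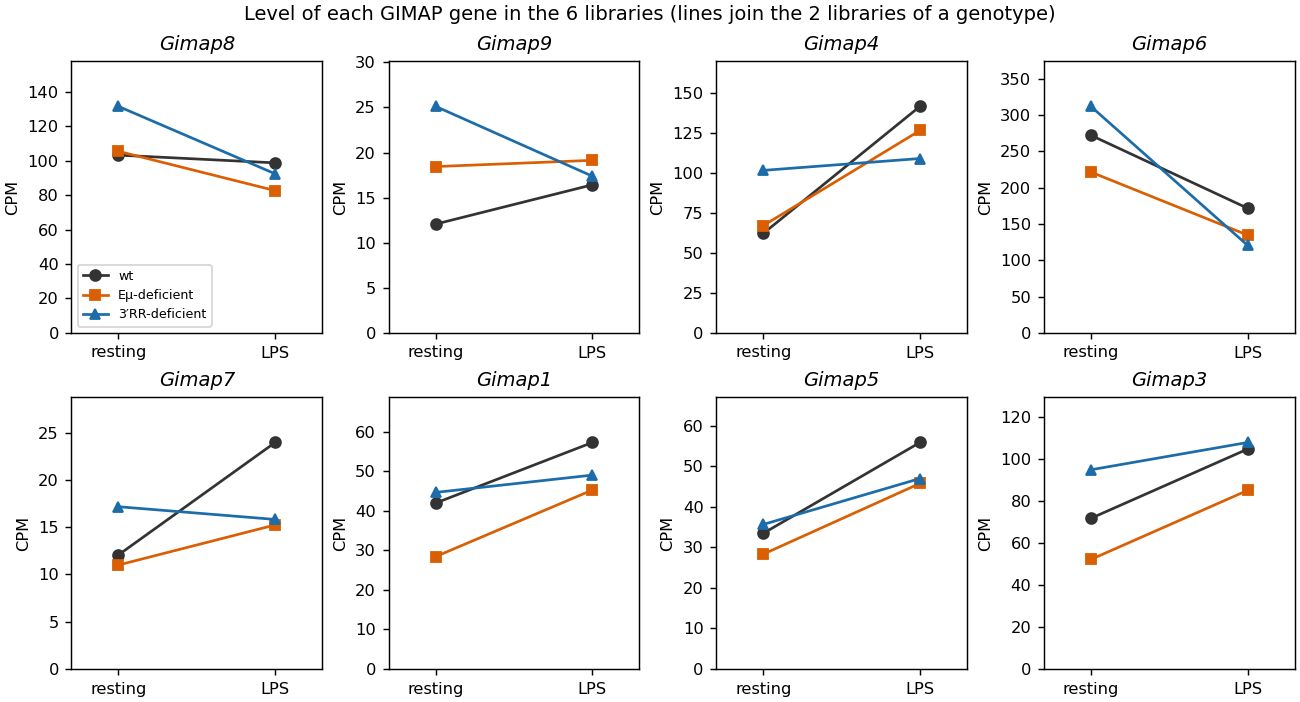
Level of each GIMAP gene (CPM, linear axis from 0, a scale of its own in each panel) in the 6 libraries, with a line joining the resting and the LPS library of a genotype. Gimap6 lies lower in all 3 LPS libraries (121 to 172 CPM) than in all 3 resting ones (221 to 312 CPM), and Gimap4, Gimap1 and Gimap5 lie higher.

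Between genes, levels were compared as CPM per kb of exon. In resting cells Gimap6 had the highest level of the family, 76.8 ± 13.0 CPM per kb (mean ± SD, n = 3 genotypes), followed by Gimap4 at 41.9 ± 11.7, Gimap8 at 30.6 ± 4.25 and Gimap3 at 28.3 ± 8.31. The lower 4 were Gimap1 at 12.5 ± 2.83, Gimap9 at 11.3 ± 3.98, Gimap5 at 7.83 ± 0.908 and Gimap7 at 5.77 ± 1.42 CPM per kb. In LPS-stimulated cells Gimap4 came first at 68.5 ± 8.89 CPM per kb, then Gimap6 at 40.7 ± 7.54, Gimap3 at 38.5 ± 4.80 and Gimap8 at 24.7 ± 2.19. Gimap1 stood at 16.4 ± 2.00, Gimap5 at 11.9 ± 1.33, Gimap9 at 10.7 ± 0.838 and Gimap7 at 7.89 ± 2.10 CPM per kb. The top of the order changed: Gimap6 lay above Gimap4 in each of the 3 resting libraries and Gimap4 lay above Gimap6 in each of the 3 LPS libraries. Neighbours in this order that differed by less than their SD were Gimap4, Gimap8 and Gimap3 and then Gimap1, Gimap9 and Gimap5 in resting cells, and Gimap6 and Gimap3 and then Gimap5 and Gimap9 in LPS-stimulated cells.

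The effect of LPS was estimated in one fit over the 6 libraries with genotype as an additive term, in which the 3 genotypes serve as repeats of the culture state and the error is the departure from a common change. Of the 8 GIMAP genes, 2 passed the threshold of adjusted p under 0.05, Gimap6 as lower and Gimap5 as higher, and 6 did not. Of all genes tested 41.0% passed (20.7% higher and 20.4% lower), so the share of members called was not above that of genes in general. The median fitted log2 change of the 8 members was 0.43, beside -0.03 over all genes. The CPM of resting and LPS libraries did not overlap for 5 of the 8, Gimap4, Gimap1 and Gimap5 being above and Gimap8 and Gimap6 below, where 51.8% of all genes tested did not overlap. With scaling to total gene counts Gimap1 overlapped too, and with scaling to spike-ins only Gimap6 did not.

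Gimap6, which binds the ATG8-family protein GABARAPL2 and is linked to autophagy, lies at 48701582 to 48708225 on the minus strand (ENSMUSG00000047867). Its level in resting cells was 272 CPM in wt, 221 CPM in Eμ-deficient and 312 CPM in 3′RR-deficient mice. After LPS it was 172 CPM in wt, 135 CPM in Eμ-deficient and 121 CPM in 3′RR-deficient mice. All 3 LPS libraries lay below all 3 resting libraries, as they did for 26.1% of all genes tested. The fitted log2 change was -0.92 with an SE of 0.26 (edgeR quasi-likelihood, Benjamini-Hochberg adjusted p = 0.0215). Within genotypes the log2 ratio of LPS to resting was -0.67 (95% counting interval -0.73 to -0.60) in wt, -0.72 (-0.81 to -0.63) in Eμ-deficient and -1.37 (-1.47 to -1.28) in 3′RR-deficient mice. Gimap6 was therefore lower after LPS in each genotype, with the lowest ratio in 3′RR-deficient mice. With scaling to spike-ins the ratio was -1.52 in wt, -0.57 in Eμ-deficient and -1.38 in 3′RR-deficient mice, so the order of the genotypes rests on the scaling. Without the 3′RR-deficient libraries the fitted change was -0.74 (edgeR quasi-likelihood, Benjamini-Hochberg adjusted p = 0.141), and without the Eμ-deficient ones it was -1.03 (adjusted p = 0.122 by the same test).

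Gimap8, the largest member with several GTPase domains in one protein, lies at the start of the cluster at 48647234 to 48660875 on the plus strand (ENSMUSG00000064262). It was at 103 CPM in wt, 105 CPM in Eμ-deficient and 132 CPM in 3′RR-deficient resting cells, and at 98.7, 82.6 and 92.3 CPM after LPS in the same order. The groups did not overlap, but the gap was small and the fitted log2 change of -0.31 with an SE of 0.23 did not pass (edgeR quasi-likelihood, Benjamini-Hochberg adjusted p = 0.312).

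Gimap5, the member known for keeping T cells and other lymphocytes alive, lies at 48746197 to 48754210 on the plus strand (ENSMUSG00000043505). Its resting levels were 33.5 CPM in wt, 28.3 CPM in Eμ-deficient and 35.7 CPM in 3′RR-deficient mice, and its LPS levels were 55.9, 45.8 and 47.0 CPM in the same order. The 3 LPS libraries lay above the 3 resting ones, as they did for 25.7% of all genes tested. Its fitted log2 change was 0.61 with an SE of 0.22 (edgeR quasi-likelihood, Benjamini-Hochberg adjusted p = 0.0498). This p stood at the threshold: it was 0.0572 with DESeq2 size factors, 0.123 with scaling to total gene counts, 0.359 without the Eμ-deficient and 0.135 without the 3′RR-deficient libraries, and 0.569 with scaling to spike-ins, all from the same edgeR test and adjustment, with log2 changes from 0.37 to 0.66. Within genotypes the log2 ratio was 0.74 (0.60 to 0.89) in wt, 0.69 (0.50 to 0.89) in Eμ-deficient and 0.40 (0.22 to 0.57) in 3′RR-deficient mice, and with scaling to spike-ins the wt ratio was -0.12.

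Gimap3, the near copy of Gimap5 and a protein of the endoplasmic reticulum, lies next to it at 48764464 to 48770851 on the minus strand (ENSMUSG00000039264). It was at 71.8, 52.2 and 94.9 CPM in resting wt, Eμ-deficient and 3′RR-deficient cells and at 105, 85.1 and 108 CPM after LPS. The groups overlapped, because the resting 3′RR-deficient library lay above the LPS library of Eμ-deficient mice, although each genotype was higher after LPS. The fitted log2 change of 0.48 with an SE of 0.23 did not pass (edgeR quasi-likelihood, Benjamini-Hochberg adjusted p = 0.126). Counts of Gimap3 were 1.84 to 2.66 times those of Gimap5 in resting and 1.86 to 2.30 times in LPS libraries, so the ratio of the pair did not separate the states.

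Gimap4, which binds the death-promoting protein BAX and modulates the death of T cells, lies at 48684549 to 48692060 on the plus strand (ENSMUSG00000054435). It had 62.3 CPM in wt, 67.1 CPM in Eμ-deficient and 102 CPM in 3′RR-deficient resting cells, and 142, 127 and 109 CPM after LPS. The groups did not overlap, and the fitted log2 change of 0.74 with an SE of 0.27 was the largest rise of the family, yet it fell just outside the threshold (edgeR quasi-likelihood, Benjamini-Hochberg adjusted p = 0.0565). The genotypes differed in the size of the change: the log2 ratio of LPS to resting was 1.19 (1.09 to 1.29) in wt and 0.92 (0.79 to 1.04) in Eμ-deficient mice, but 0.10 (-0.01 to 0.21) in 3′RR-deficient mice. With scaling to spike-ins this ratio was 0.33 in wt, 1.06 in Eμ-deficient and 0.09 in 3′RR-deficient mice, so the place of wt rests on the scaling. Without the 3′RR-deficient libraries Gimap4 passed, with a log2 change of 1.00 (edgeR quasi-likelihood, Benjamini-Hochberg adjusted p = 0.0259).

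Gimap1, needed for the upkeep of mature B-cells, lies at 48739054 to 48743795 on the plus strand (ENSMUSG00000090019). It was at 41.9, 28.4 and 44.6 CPM in resting wt, Eμ-deficient and 3′RR-deficient cells and at 57.3, 45.2 and 49.0 CPM after LPS. The groups were separated by a margin of less than 1 CPM, and the fitted log2 change of 0.42 with an SE of 0.22 did not pass (edgeR quasi-likelihood, Benjamini-Hochberg adjusted p = 0.164). Gimap7, a catalytically active GTPase that pairs with other GIMAP proteins, lies at 48718621 to 48724636 on the plus strand (ENSMUSG00000043931). It was at 12.1, 11.0 and 17.2 CPM in resting and 24.0, 15.2 and 15.8 CPM in LPS libraries, and the groups overlapped. Its log2 ratio was 0.99 (0.76 to 1.23) in wt and -0.12 (-0.41 to 0.17) in 3′RR-deficient mice, and the fitted change was 0.45 with an SE of 0.28 (edgeR quasi-likelihood, Benjamini-Hochberg adjusted p = 0.218). Gimap9, at 48676129 to 48679114 on the plus strand (ENSMUSG00000051124), was at 12.1, 18.4 and 25.1 CPM in resting and 16.4, 19.1 and 17.4 CPM in LPS libraries. Its fitted log2 change was -0.01 with an SE of 0.26, made of a higher value after LPS in wt (0.45), a lower one in 3′RR-deficient mice (-0.53) and 0.05 in Eμ-deficient mice. With scaling to spike-ins the wt ratio was 0.13 for Gimap7 and -0.41 for Gimap9, beside -0.13 and -0.54 in 3′RR-deficient mice.

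**Figure D2:**
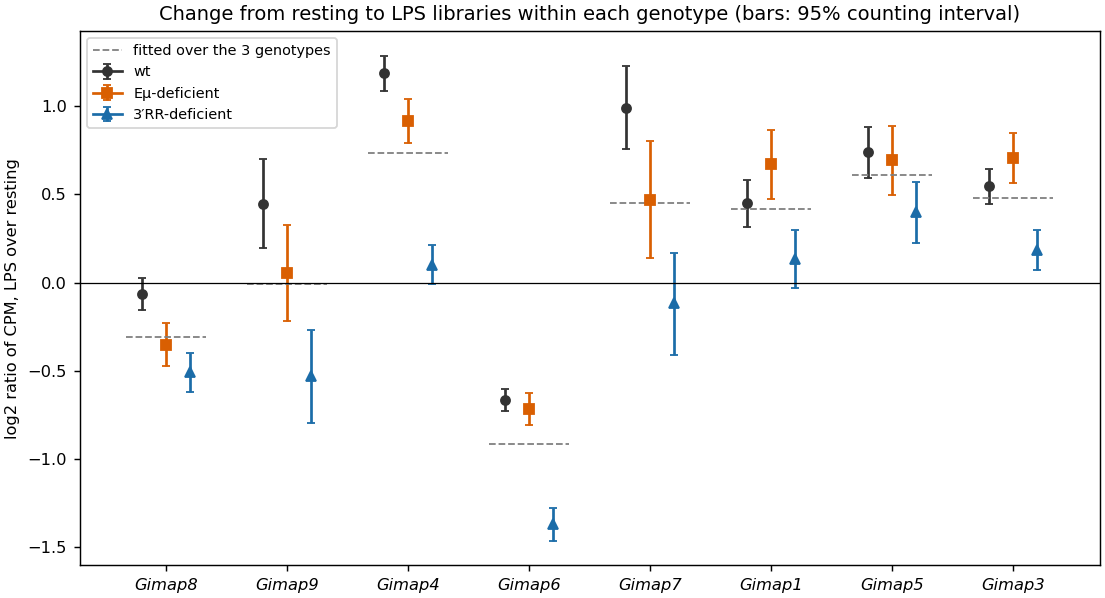
Log2 ratio of CPM, LPS over resting, of the 8 GIMAP genes in each genotype, with 95% counting intervals as bars and the fitted change as a dashed line. Gimap6 lies below 0 in all 3 genotypes and Gimap5 above 0, and the 3′RR-deficient points are the lowest of the 3 for each gene.

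In 3′RR-deficient mice the log2 ratio of LPS to resting was the lowest of the 3 genotypes for each of the 8 members. Its median over the members was -0.01 there, against 0.50 in wt and 0.57 in Eμ-deficient mice, while the median of all genes was 0.01, 0.05 and 0.08. With scaling to the spike-in sum the wt median became -0.36, as 6 of 8 members were then lower after LPS in wt and only Gimap4 and Gimap7 higher, and that of 3′RR-deficient mice became -0.02, so this order of the genotypes rests on the scaling. Each library's trend on GC content was not removed from these ratios. On the log2 scale it ran from -0.31 at Gimap1 to 0.26 at Gimap8 in the wt LPS library. In the 3′RR-deficient LPS library it ran the other way, from 0.20 to -0.41 for the same genes. With the trend removed, the 3′RR-deficient ratio of Gimap8 was not the lowest. The difference between genotypes could not be tested with 1 library each.

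Because a scaling factor cancels within a library, the share of each gene in the summed counts of the 8 members does not depend on it. Gimap6 held 44.7%, 41.6% and 40.9% of the GIMAP counts in resting wt, Eμ-deficient and 3′RR-deficient cells, and 25.6%, 24.3% and 21.6% after LPS. Its mean share went from 42.4% ± 2.02 to 23.8% ± 2.06 (SD, n = 3), the largest shift of the 8. The share of Gimap4 went the other way, from 12.1% ± 1.63 to 21.2% ± 1.67, that of Gimap3 from 11.3% ± 1.38 to 16.8% ± 2.21, and that of Gimap8 from 18.0% ± 1.57 to 15.4% ± 0.988. Gimap5 took 5.17% ± 0.432 of the counts before and 8.34% ± 0.0729 after LPS. The shares of resting and LPS libraries did not overlap for 7 of the 8 genes, Gimap9 being the exception at 2.91% ± 0.812 and 3.00% ± 0.509. For these 7 genes the two-sided exact permutation p was 0.1, the smallest that 3 against 3 libraries allow, and 0.1143 adjusted over the 8, so no share could pass 0.05. Shares of one family add up to 100%, so a lower share of Gimap6 raises the others, and such ratios show unequal change rather than which gene moved.

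**Figure D3:**
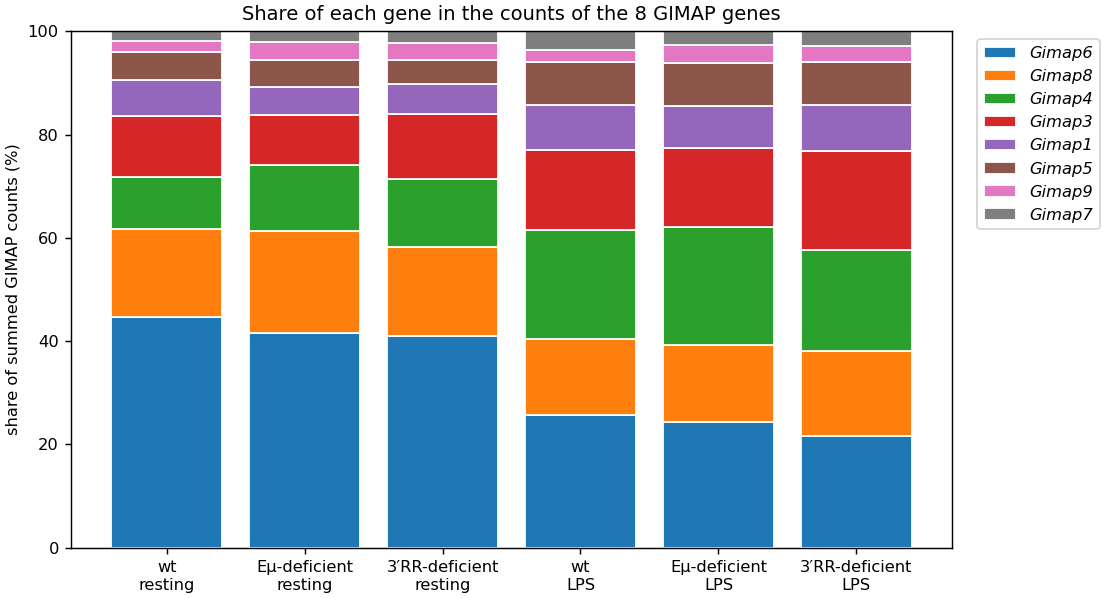
Share of each GIMAP gene in the summed counts of the 8 genes (percent, stacked from 0 to 100) in the 6 libraries. The Gimap6 block takes 40.9% to 44.7% of the resting bars and 21.6% to 25.6% of the LPS bars, and the Gimap4 block grows in each genotype.

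The ratio of Gimap6 to Gimap4 counts, a pair chosen after its values were seen, stated the same shift for 2 genes. It was 4.37 (95% counting interval 4.10 to 4.67) in wt, 3.30 (3.06 to 3.56) in Eμ-deficient and 3.07 (2.92 to 3.22) in 3′RR-deficient resting cells. After LPS it was 1.21 (1.15 to 1.27), 1.06 (0.986 to 1.15) and 1.10 (1.01 to 1.21), close to equal counts in all 3 genotypes.

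An antisense gene, Gimap1os, runs against Gimap1 at 48738346 to 48741444 on the minus strand (ENSMUSG00000044867) and covers 1107 bases, or 36.0%, of the Gimap1 exons. It is not one of the GTPases, since it is annotated as a processed transcript. Counting was stranded, and over 86 other genes with a partner named in this way the antisense partner held a median of 0.961% of the counts of the pair, so the counts were mostly on the sense strand. Gimap1os had 6.53, 4.65 and 9.11 CPM in resting wt, Eμ-deficient and 3′RR-deficient cells and 27.8, 17.3 and 11.9 CPM after LPS. All LPS libraries lay above all resting ones, and the fitted log2 change of 1.47 with an SE of 0.36 passed (edgeR quasi-likelihood, Benjamini-Hochberg adjusted p = 0.0106). Relative to Gimap1, its counts were 0.156, 0.164 and 0.204 per Gimap1 count at rest and 0.486, 0.382 and 0.243 after LPS. The counting intervals of this ratio were apart in wt and Eμ-deficient mice (0.127 to 0.189 and 0.438 to 0.538 in wt), and overlapped in 3′RR-deficient mice (0.174 to 0.239 and 0.195 to 0.301). A read-through gene model, Gm28053, shares 6.4% of the exon bases of Gimap1, 3.7% of Gimap5 and 3.5% of Gimap7 on the same strand.

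Of the 10 named protein-coding genes nearest to the cluster, 5 on each side, 5 had enough counts to be tested. Genes with provisional names (Gm numbers, Rik clones and accession-type names) were left out of this choice. Zfp775, 24.0 kb before Gimap8, rose (log2 change 1.07, SE 0.34, edgeR quasi-likelihood, Benjamini-Hochberg adjusted p = 0.0324). Tmem176b and Tmem176a, 63.0 and 70.1 kb beyond Gimap3, fell by 2.16 and 2.13 on the log2 scale, and Lrrc61 fell by 0.85. The changes before the cluster and inside it thus pointed in both directions, while both genes tested beyond it fell.

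**Figure D4:**
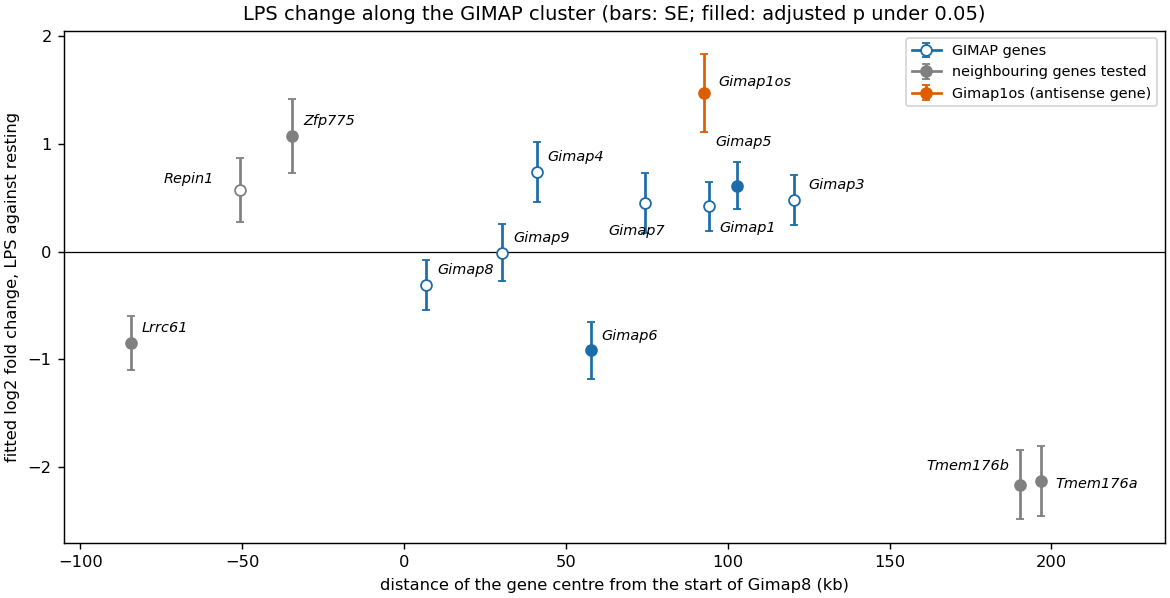
Fitted log2 change with LPS (points, with SE as bars, filled where the adjusted p is under 0.05) against the distance of each gene's centre from the start of Gimap8 in kb. Gimap6 at -0.92 lies between Gimap4 at 0.74 and Gimap7 at 0.45, and the antisense gene Gimap1os at 1.47 lies over Gimap1 at 0.42.

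Whether the loss of an enhancer of the heavy chain locus altered the GIMAP genes was read from the same fit. This fit estimates a difference common to both culture states. Opposite differences at rest and after LPS partly cancel in it and add to its error, so it could not test a difference that depends on the state. Of the 8 genes, 0 passed for 3′RR-deficient against wt, where 0.760% of all genes passed (0.185% higher and 0.575% lower), and 0 passed for Eμ-deficient against wt, where 1.14% passed (0.877% higher and 0.267% lower). At an unadjusted p under 0.05 the edgeR counts were again 0 of 8 in both, beside 825 of all 14600 genes for 3′RR-deficient and 1221 for Eμ-deficient mice, and DESeq2 and limma called 0 as well. With the GC trend of each library removed, Gimap9 was at 0.82 for 3′RR-deficient mice with an unadjusted edgeR p of 0.00583, and the Benjamini-Hochberg adjusted p of 0.297 did not pass. The largest fitted differences were those of Gimap9 in 3′RR-deficient mice, 0.58 with an SE of 0.32, and of Gimap1 in Eμ-deficient mice, -0.45 with an SE of 0.27 (edgeR quasi-likelihood, Benjamini-Hochberg adjusted p = 0.920 and 0.817). With SEs of 0.27 to 0.34 on the log2 scale, a difference was not detectable, which does not show that there was none.

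Within resting cells all 8 members had a higher CPM in the 3′RR-deficient than in the wt library, with a median log2 ratio of 0.38, against -0.01 over all genes, but with scaling to total gene counts 6 of 8 and with scaling to spike-ins 5 of 8 did. The highest was Gimap9, at 1.06 (0.83 to 1.29), followed by Gimap4 at 0.71 (0.60 to 0.81) and Gimap7 at 0.51 (0.26 to 0.76). Ratios of single genes between these libraries ran from -0.83 to 0.94 from the 5th to the 95th percentile, and 7 of the 8 members lay inside that range. After LPS the order turned for most: 6 of 8 were lower in the 3′RR-deficient library, with a median of -0.24, although scaling to spike-ins put all 8 higher. Gimap7 at -0.60 (-0.88 to -0.33) and Gimap6 at -0.51 (-0.61 to -0.41) were the lowest, and all 8 lay inside the range of all genes, -1.42 to 1.31. With the GC trends of both LPS libraries removed, Gimap8 and Gimap4 lay above wt, Gimap3 lay below it and Gimap1 was the lowest. Without that removal Gimap9 and Gimap3 were higher than wt in both states, 2 of 8 beside 20.8% of all genes. None of the 8 were lower in both, beside 23.1%.

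In Eμ-deficient mice 5 of 8 members were lower than wt in resting cells (median log2 ratio -0.19) and 7 of 8 after LPS (median -0.29), or 8 and 6 with scaling to spike-ins. With the GC trends removed Gimap8 and Gimap4 were lower than wt in resting cells as well. Gimap1, Gimap3, Gimap5, Gimap6 and Gimap7 were lower in both states, as were 28.8% of all genes, and Gimap6, the most precisely counted, was at -0.30 (-0.36 to -0.23) and -0.35 (-0.44 to -0.26). Gimap1 and Gimap3 were the lowest in resting cells, at -0.56 (-0.74 to -0.38) and -0.46 (-0.59 to -0.33). Gimap9 alone was higher in both states, beside 21.3% of all genes, at 0.61 (0.34 to 0.88) and 0.22 (-0.04 to 0.48), and with scaling to spike-ins its resting ratio was -0.16. The 8 B-cell markers had a median fitted log2 difference of -0.28 in Eμ-deficient mice, beside -0.30 for the 8 GIMAP genes. In resting libraries they summed to 2267 CPM in Eμ-deficient mice and 3112 CPM in wt, and after LPS to 1809 and 2174 CPM. Erythroid markers summed to 19640 CPM in the resting Eμ-deficient library and 3374 CPM in wt. The part of the cell make-up in the GIMAP ratios was not tested.

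**Figure D5:**
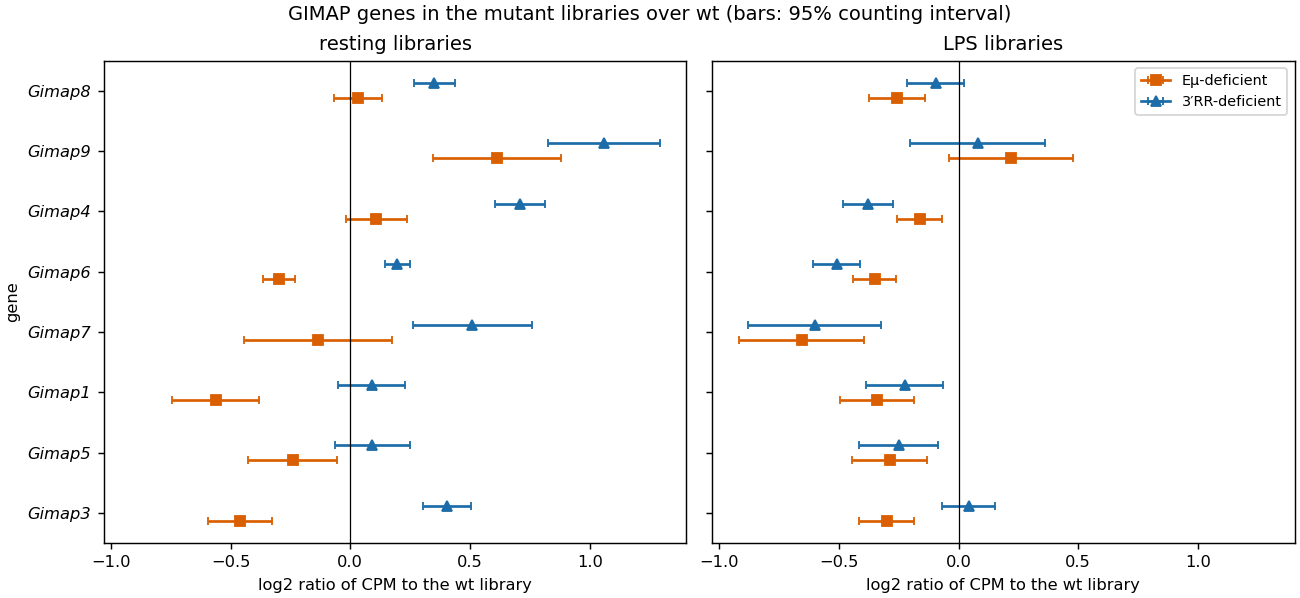
Log2 ratio of CPM to the wt library for the 8 GIMAP genes in Eμ-deficient and 3′RR-deficient libraries, resting on the left and LPS on the right, with 95% counting intervals as bars. In resting cells the 3′RR-deficient points lie at 0.09 to 1.06, and after LPS 6 of 8 lie below 0.

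Other families of immune GTPases and known partners of GIMAP proteins were taken for comparison. Among guanylate-binding proteins, interferon-induced GTPases of cell-autonomous defence, 5 of 10 tested rose with LPS and 1 fell, with log2 changes of 2.85 for Gbp2b, 2.09 for Gbp2 and -2.54 for Gbp8. Of 7 immunity-related p47 GTPases 1 passed, Irgc1, known from testis, which fell by 2.92, and of the dynamin-like Mx and very large GTPases 0 of 3 passed, Gvin1 being at -0.36 and Mx1 at 0.70. Of 7 BCL2-family genes 3 rose, among them Bcl2l1, which encodes the survival protein BCL-XL, by 1.67, and Bax by 0.87 (edgeR quasi-likelihood, Benjamini-Hochberg adjusted p = 0.00518 and 0.0162). Of 5 ATG8-family genes, the autophagy partners of GIMAP6, 2 fell, Map1lc3a by 2.59 and Map1lc3b by 1.73, while Gabarapl2, named after its values were seen as the reported partner, was at -0.07 and did not pass. Of the 2 GSK3 kinase genes, linked to GIMAP5, 0 passed, with Gsk3a at 0.60 and Gsk3b at -0.39. No gene of these lists passed in either mutant.

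The cells' identity was checked against markers of the cell types a CD43- spleen preparation can hold. The 8 B-cell markers summed to 2267 to 3370 CPM in resting and 1809 to 2174 CPM in LPS libraries, and 3 of 8 fell, such as Blk by 1.73 and Ebf1 by 1.14 on the log2 scale. GIMAP genes are also expressed in T cells, NK cells and endothelium, and markers of these cells were lower after LPS. T-cell markers summed to 56.1 to 86.2 CPM in resting and 11.6 to 34.9 CPM in LPS libraries, with 14 of 19 tested lower, 0 higher, and Cd8a and Cd4 at log2 changes of -5.35 and -4.47. The defining T-cell gene Cd3e had 11, 16 and 25 counts in the resting and 0, 4 and 1 counts in the LPS libraries. NK markers fell for 4 of 6 tested (12.6 to 14.7 CPM resting, 0.402 to 5.39 CPM after LPS), with Prf1 at -3.24 and Ncr1 at -3.22, and endothelial markers for 2 of 3 tested (89.5 to 130 and 48.7 to 64.1 CPM), with Cdh5 at -2.02 and Pecam1 at -1.03. Nearly all of the endothelial sum was Pecam1, which other blood cells express too, while Cdh5 was at 0.815 to 1.49 CPM in resting libraries. Myeloid markers fell for 9 of 9 tested, from 155 to 364 CPM to 22.5 to 36.2 CPM, with Csf1r at -5.35 and Csf3r at -3.82. Erythroid markers fell for 6 of 6, with Hbb-bt at -6.43, and were higher in Eμ-deficient libraries for 6 of 6. The part of these other cells in the fall of Gimap6 was not tested, and in bulk RNA fewer cells of a type cannot be told apart from less RNA per cell. With TMM scaling Gimap5 and Gimap4 lay higher after LPS in these libraries, Gimap4 without passing. With scaling to spike-ins neither separated the culture states, and the part of other cells in their levels was not tested either. As a check of stimulation, 5 of 8 activation genes rose, with Prdm1, the plasma cell regulator, at 3.07, while 2 fell, Cd86 by 2.07 and Myc by 1.57.

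Outside the family, the genes whose log2 CPM followed that of the summed GIMAP counts most closely over the 6 libraries were Cyb5d1 (Pearson r = 0.976), Slc4a7 (0.970), Kdm1b (0.947), Fam3c (0.945) and Faim (0.940), the 5 highest of 9592 genes with a mean of at least 5 CPM. Values of r this high among so many genes and 6 libraries are a description, and the libraries differ in depth and in their trend on base composition. None of the 5 passed for LPS. The members themselves followed the sum less closely, from 0.15 for Gimap5 to 0.73 for Gimap8.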

How the data were processed

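RNA-seq of 6 libraries (wt, Eμ-deficient and 3′RR-deficient, resting or LPS, 1 each, from rRNA-depleted, stranded total RNA) was used. Per the study's methods and the submitters' processing notes, the authors mapped paired reads with STAR 2.4.0a to mm10 and counted fragments per gene name with featureCounts (Subread 1.4.6-p1), strand option 1, multi-mapping reads included. They deposited raw counts, which are not normalized. Groups came from the labels.

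Spike-in counts, 92 of 47055 names, were left out. Of the gene names 44203 matched GENCODE M21 (GRCm38) by name and 781 by an older name. Genes that reached 10 counts in 2 or more libraries (14600) were fitted with edgeR 4.0.16 in R 4.3.3 (TMM, quasi-likelihood F test, genotype and culture state as additive terms, 2 residual degrees of freedom, Benjamini-Hochberg over all genes tested, threshold 0.05). The methods name no test for gene counts. A call for a genotype is not a test between mice. The error behind the edgeR p-values is the departure of these pooled libraries from the additive terms. It may be technical or come from a change with LPS that differs between genotypes. The SE is the log2 change divided by the square root of F. Ratios of 2 libraries carry exact conditional binomial (Clopper-Pearson) 95% intervals, and intervals cover counting error only. CPM per kb used the union of exons. Shares were compared with exact permutation tests (scipy 1.17.1). Alternatives were total-count, DESeq2 (1.42.0) and spike-in scaling, other count filters, DESeq2's Wald test, limma 3.58.1 on log2 CPM with a prior count of 2, removal of each library's trend on GC content, no genotype term, and fits without each genotype. The fit was tested on simulated data.

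Named genes were the 8 members, Gimap1os, from each comparison list up to the 2 largest rises and 2 largest falls among calls (with no call, the 2 most abundant), the tested neighbours that passed, and the 5 genes most correlated with the family sum. Some genes that this rule names are not reported here. Members and lists were chosen with earlier results of these data known. Labels and methods differ on the unit of the LPS dose in one place, and 5 μg per ml is the one both give.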

Additional observations from a re-analysis of the deposited data

Results flagged for a closer look

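For several genes the change with LPS differed between genotypes, either because the mutant library lay above wt at rest and below it after LPS or, for Gimap9, because the ratio was above 0 in wt and below 0 in the mutant. The difference in log2 ratio of LPS to resting, 3′RR-deficient minus wt, was -1.11 for Gimap7, -1.09 for Gimap4, -0.98 for Gimap9, -0.71 for Gimap6, -0.45 for Gimap8, -0.34 for Gimap5, -0.31 for Gimap1 and -1.70 for the antisense gene Gimap1os. Eμ-deficient minus wt, it was -0.29 for Gimap8 and -0.27 for Gimap4. Genes that met neither condition were not flagged, whatever the size of their difference. For 3′RR-deficient mice this left out Gimap3 at -0.36. For Eμ-deficient mice it left out Gimap7 at -0.52, Gimap9 at -0.39, Gimap1 at 0.22, Gimap3 at 0.16 and Gimap1os at -0.20. Gimap6 and Gimap5, both at -0.05 there, were left out too. Each rests on 4 libraries, 1 per genotype and culture state, and the difference was not tested. The LPS libraries of 3′RR-deficient and of wt mice both enter every difference given for 3′RR-deficient mice. The spike-in ratios of one to the other had an SD of 1.27 on the log2 scale, and the SD of LPS to resting was 0.78 in wt and 0.63 in 3′RR-deficient mice. The part of this spread in the differences was not tested. Each library's trend on GC content was not removed from them either. For Gimap8 this trend was 0.26 in the wt and -0.41 in the 3′RR-deficient LPS library, and for Gimap1 -0.31 and 0.20. The sizes and order of the differences, and the sign for Gimap8, depend on it. With scaling to the spike-in sum, all 8 members were above wt in the LPS library of 3′RR-deficient mice. The ratio of LPS to resting was then higher in 3′RR-deficient than in wt mice for Gimap6 (-1.38 and -1.52) and Gimap8 (-0.52 and -0.92). It was also higher for Gimap5 (0.39 and -0.12), Gimap1 (0.13 and -0.41) and Gimap3 (0.18 and -0.31). For Gimap7 (-0.13 and 0.13), Gimap4 (0.09 and 0.33) and Gimap9 (-0.54 and -0.41) it stayed lower. The signs of several differences thus depend on the scaling.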

How the results depend on the processing

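Of the 8 GIMAP genes, 2 were called for LPS (Gimap5 and Gimap6) in the fit reported, 1 with scaling to total gene counts, 1 with DESeq2 size factors, 1 with the spike-in sum, and 5 (Gimap1, Gimap3, Gimap4, Gimap5 and Gimap6) with the GC trend removed. Of all genes tested, 41.0%, 39.4%, 40.8%, 29.8% and 50.1% were called in the same order. With DESeq2's Wald test 2 were called, Gimap4 and Gimap6, beside 39.3% of all genes. Leaving out the libraries of 1 genotype gave 0 (without Eμ-deficient, beside 27.7% of all genes) to 2 (without wt, beside 49.7%). Gimap6 was called in 10 of 12 alternatives (log2 change -1.16 to -0.74, adjusted p by edgeR, DESeq2 or limma 0.000307 to 0.141), Gimap5 in 5 of 12 (0.00951 to 0.569) and Gimap4 in 5 of 12 (0.0128 to 0.435). Gimap9, with a fitted LPS change of -0.01, turned to 0.0041 with the GC trend removed and ran from -0.24 (without wt) to 0.20 (without 3′RR-deficient) when a genotype was left out. For 3′RR-deficient against wt, spike-in scaling turned Gimap1 (0.11), Gimap5 (0.11), Gimap6 (0.0447) and Gimap7 (0.17), and GC removal turned Gimap5 (0.0113) and Gimap7 (0.0093); none passed before or after.

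Over all genes, LPS calls numbered 5991. They numbered 3915 (without Eμ-deficient) to 6899 (without wt) when a genotype was left out, and 7310 with the GC trend removed. Spike-in scaling gave 1454 higher and 2900 lower and moved the median log2 change from -0.03 to -0.28, and total-count scaling gave 2480 higher and 3276 lower with a median of -0.16, beside 3016 and 2975 in the fit reported. The 111 calls for 3′RR-deficient mice became 170 with spike-in scaling, 339 with no filter, 182 with DESeq2's Wald test and 178 with the 2 genotypes alone. The 167 calls for Eμ-deficient mice became 605 with no filter, 333 with DESeq2's Wald test and 503 with the 2 genotypes alone. The causes were not tested. Of the 32 ratios of a mutant to wt within a state, 13 changed sign with spike-in scaling, 5 with total counts, 5 with GC removal and 0 with DESeq2 size factors or log2(CPM + 1). The labels carry no replicate numbers, and the genotype term pairs the resting and the LPS library of a genotype. Without it 5396 genes (37% of those tested) and 2 GIMAP genes (Gimap5 and Gimap6) were called for LPS. Among other named genes, Bax lost its call in 4 and Zfp775 in 5 of 12 alternatives. One library per genotype and state limits every statement on genotype.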
